A study of Mus musculus with 6 samples.

Results

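The genes described are the 2 receptors for platelet-derived growth factor (PDGF), Pdgfra and Pdgfrb, 4 genes of the contractile apparatus, Acta2, Tagln, Myl9 and Cnn1, and 4 genes used to mark fibroblasts and other stromal cells, Thy1, Pdpn, S100a4 and Fap. They were chosen by symbol, each had 1 row with a single gene symbol in the array's annotation, and they make up 10 of the 9490 genes with such a row. RNA came from cultured prostate cancer stem-like cells of TRAMP mice, a strain in which a viral oncogene under a promoter active in prostate epithelium drives tumours. The 3 TNE samples were taken from mice with neuroendocrine tumours, whose age the labels do not give, and the 3 TPIN samples from mice aged 10 to 11 weeks with intraepithelial neoplasia. All 6 were grown in serum-free medium that held the growth factors EGF and FGF2. Separate mice or cultures are not named for the samples, so the p-values below reflect variation among 6 samples that may in part be technical. The free-text description names neoplasia for all 6 samples, and the groups follow the titles and cell type labels.

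PDGF ligands are dimers that join 2 receptor chains at the cell surface and switch on their tyrosine kinases. The alpha receptor is a standard marker of fibroblasts and mesenchymal progenitors, and the beta receptor of pericytes and activated fibroblasts. Smooth muscle cells and myofibroblasts make a form of actin encoded by Acta2, the actin-binding proteins transgelin (Tagln) and calponin (Cnn1), and the regulatory myosin light chain Myl9, and these genes share control by serum response factor. In the prostate such genes are best known from the stroma around the glands.

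Values are log2 expression made with RMA, which brings the arrays to one distribution. Array medians lay between 8.82 and 9.10 in TNE and between 8.98 and 9.03 in TPIN. The correlation between arrays over all rows was 0.825 to 0.917 within TNE, 0.842 to 0.905 within TPIN and 0.549 to 0.733 between TNE and TPIN arrays. Epithelial identity could be checked on 3 of 22 listed markers only. Of these Krt8 averaged 7.59 in TNE and 7.92 in TPIN, Krt18 averaged 7.60 in TNE and 8.27 in TPIN, and Cd24a was far higher in TNE, at 10.72 against 4.38 in TPIN. No detection call came with the values, so low values cannot be called absent.

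Both PDGF receptors, 3 of the 4 contractile genes and 2 of the 4 stromal markers were lower in TNE. In all, 7 of the 10 genes fell in TNE in limma (Benjamini-Hochberg adjusted p under 0.05) and none rose, against 10.2% of all genes tested that were lower in TNE. At an unadjusted p under 0.05 the counts were 8 lower and 0 higher. For the same 7 genes every TNE array lay below every TPIN array, which held for 20.5% of all genes (43.8% in either direction). The median log2 difference of the 10 genes was -3.17, against -0.02 over all genes. Cnn1, S100a4 and Fap did not pass, and their groups overlapped. In RNA from whole cultures, fewer cells of a kind and less RNA per cell cannot be told apart.

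**Figure D1:**
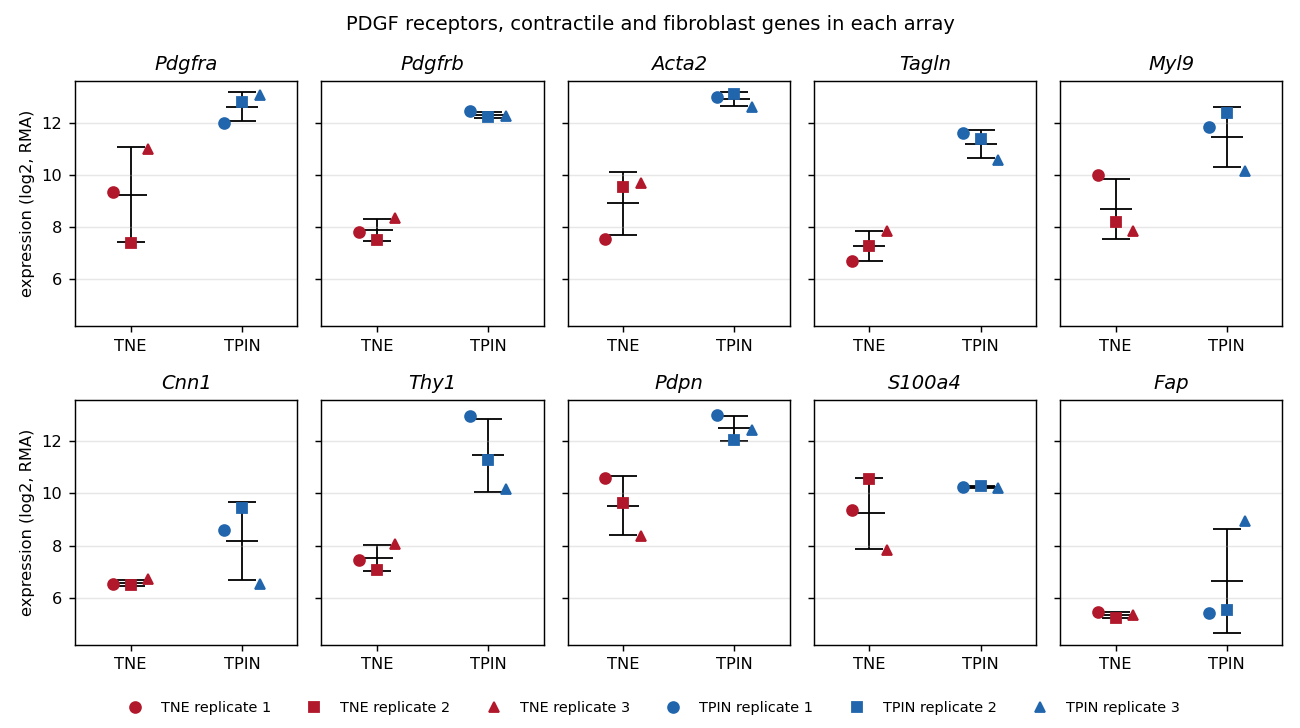
Expression of the 10 genes in each of the 6 arrays (log2, RMA), with TNE left and TPIN right in each panel, a symbol per replicate, and bars for the mean and SD of 3 arrays. Pdgfrb separates the groups by the widest gap, 3.87, while single arrays stand apart in Fap (TPIN replicate 3) and Cnn1 (TPIN replicate 3).

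Pdgfrb, the receptor for the B and D forms of PDGF, had 7.83, 7.50 and 8.33 in TNE replicates 1, 2 and 3, against 12.45, 12.20 and 12.24 in TPIN replicates 1, 2 and 3. The highest TNE array lay 3.87 below the lowest TPIN array, and the TPIN arrays spanned only 0.24. Pdgfrb was 21.2-fold lower in TNE (95% interval 13.1 to 34.5, log2 difference -4.41, SE 0.30, limma adjusted p = 0.000378). It had the rank 12 by p among all 9490 genes, and with 1 array left out the log2 difference stayed between -4.63 and -4.22.

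Pdgfra, a receptor that binds the A and C forms, had 9.33, 7.38 and 11.01 in the TNE arrays, against 11.98, 12.78 and 13.05 in the TPIN arrays. The groups did not overlap, but the TNE arrays spanned 3.63, the widest range of the 10 genes in TNE, with replicate 3 high and replicate 2 low. Pdgfra was 10.3-fold lower in TNE (95% interval 2.76 to 38.6, log2 difference -3.37, SE 0.82, limma adjusted p = 0.0272). The call was lost without any 1 of the TPIN arrays (limma adjusted p = 0.0599, 0.0795 and 0.067), and the log2 difference was -2.44 without TNE replicate 2 and -4.25 without TNE replicate 3.

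The drop of the alpha receptor was not shown to differ from that of the beta receptor. The within-array gap, Pdgfra minus Pdgfrb, was 1.504, -0.12 and 2.68 in the TNE arrays, against -0.46, 0.58 and 0.82 in the TPIN arrays. It shifted by 1.04 toward Pdgfra in TNE (exact two-sided permutation test p = 0.4, 3 against 3 arrays, smallest possible p = 0.1). Of 3 such gaps tested this was the one planned, and its adjusted p was 0.4.

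Among the genes that feed the receptors 2 of 3 measured ligands, Pdgfc and Pdgfd, were lower in TNE. Of 11 listed genes for PDGF ligands and the proteins that process or bind them 10 were measured. Of these 7 fell, against 10.2% of all genes lower in TNE, and none rose (0 at an unadjusted p under 0.05). All 10 differences were negative, with a median of -2.13. Pdgfd, a ligand of the beta receptor, had 5.74, 5.82 and 6.30 in the TNE arrays, against 8.99, 9.39 and 7.78 in the TPIN arrays (log2 difference -2.77, limma adjusted p = 0.00596). Pdgfc, a ligand of the alpha receptor, had 7.45, 7.67 and 6.73 in the TNE arrays, against 8.65, 9.20 and 9.65 in the TPIN arrays (log2 difference -1.89, limma adjusted p = 0.0133). Neither gene's groups overlapped, and both calls held without any 1 array.

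Pdgfa, the alpha receptor's first known ligand, did not pass, with 9.39, 9.93 and 9.08 in the TNE arrays, against 10.49, 9.94 and 9.33 in the TPIN arrays (log2 difference -0.45, limma adjusted p = 0.405). The 95% interval of its difference ran from -1.34 to 0.44. Pdgfb was not analysed here.

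Proteins around the ligands and receptors made up the rest of the falls. Lrp1, an endocytic receptor that binds the beta receptor, Sparc, a matrix protein that binds PDGF, and Pdgfrl, a receptor-like protein without a kinase, had log2 differences of -2.86, -2.49 and -1.99. Furin, which cuts ligand precursors, was at -1.85 and lost its call without TPIN replicate 1 or 2. The plasminogen activator Plat, which activates the C form, was at -2.27 and lost its call without any 1 array other than TNE replicate 1. Plau and the co-receptor Nrp1 did not pass (limma adjusted p = 0.0835 and 0.466).

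Most measured genes below the receptors did not pass. Of 22 measured genes of adaptors, kinases and other signalling proteins 4 fell, 1 rose and 17 did not pass, where 10.2% of all genes were lower in TNE. The median log2 difference was -0.18, and 2 fell without TPIN replicate 1 or 2 or TNE replicate 2 or 3. Cblb, a ubiquitin ligase that acts on receptor kinases, and Rasa1, a GTPase activator for Ras that docks on the beta receptor, had log2 differences of -2.18 and -1.71 and kept their calls without any 1 array. The adaptor Shc1 (-1.55) and the transcription factor Stat3 (-1.15) were lower, and Pik3cb, a catalytic subunit of PI3 kinase, was higher by 1.48, where 10.3% of all genes were higher in TNE. Each of the 3 lost its call without any 1 of 5 arrays. Crk, an adaptor among the 3 genes of highest mean, had 11.07 ± 0.08 in TNE and 10.64 ± 0.37 in TPIN (SD, n = 3 arrays each) and did not pass in limma.

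Among the contractile genes Acta2, which encodes smooth muscle alpha-actin, had 7.53, 9.52 and 9.68 in the TNE arrays, against 12.998, 13.11 and 12.60 in the TPIN arrays. The groups were 2.92 apart at their nearest arrays, and TNE replicate 1 stood lowest. Acta2 was 15.9-fold lower in TNE (95% interval 6.46 to 39.2, log2 difference -3.99, SE 0.56, limma adjusted p = 0.00401). The log2 difference was -3.30 without TNE replicate 1 and past the threshold without any 1 array.

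Tagln, whose protein transgelin binds actin filaments, had 6.69, 7.29 and 7.85 in the TNE arrays, against 11.60, 11.39 and 10.57 in the TPIN arrays. The groups did not overlap, and the arrays of each spanned about the same range, 1.16 in TNE and 1.03 in TPIN. Tagln was 15.1-fold lower in TNE (95% interval 7.86 to 29.0, log2 difference -3.92, SE 0.41, limma adjusted p = 0.00144), and the call held without any 1 array.

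Myl9, the regulatory light chain whose phosphorylation starts contraction in smooth muscle, had 9.99, 8.19 and 7.86 in the TNE arrays, against 11.84, 12.36 and 10.15 in the TPIN arrays. The groups came within 0.17 of each other, at TNE replicate 1 and TPIN replicate 3. Myl9 was 6.83-fold lower in TNE (95% interval 2.17 to 21.5, log2 difference -2.77, SE 0.71, limma adjusted p = 0.0324). It did not pass when TPIN replicate 1 or 2, or TNE replicate 2 or 3, was left out (limma adjusted p = 0.108, 0.1, 0.105 and 0.0818).

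Cnn1, calponin 1, a marker of differentiated smooth muscle, had 6.51, 6.49 and 6.70 in the TNE arrays, against 8.59, 9.42 and 6.52 in the TPIN arrays. TPIN replicate 3 lay among the TNE arrays, and replicates 1 and 2 lay well above them. The gene did not pass (log2 difference -1.61, 95% interval -3.15 to -0.08, limma adjusted p = 0.115), and it did pass without TPIN replicate 3 (log2 difference -2.44, limma adjusted p = 0.00899).

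**Figure D2:**
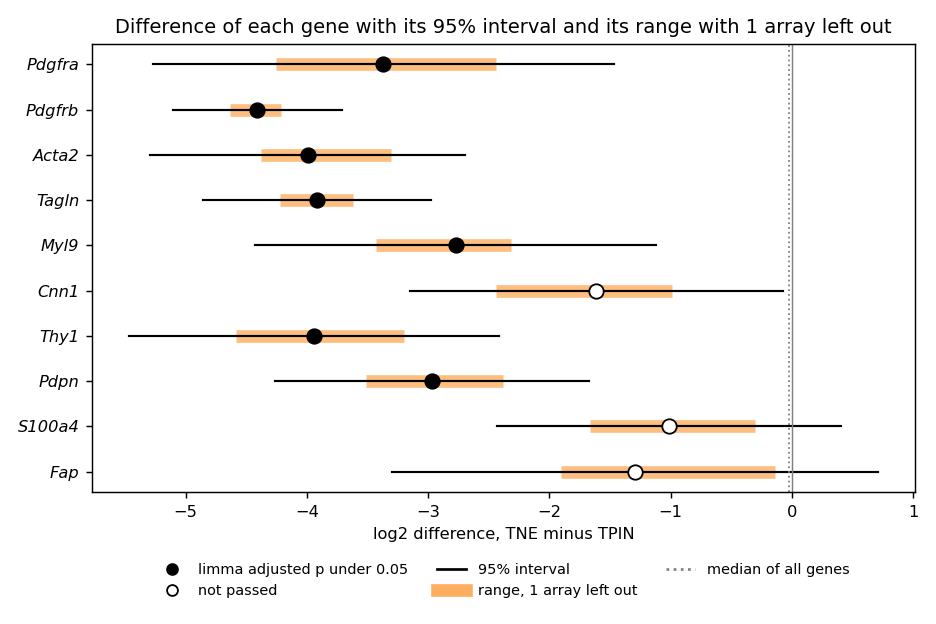
Log2 difference, TNE minus TPIN, of each of the 10 genes, with filled circles for genes past the limma threshold, black lines for 95% intervals, orange bars for the range with 1 array left out and a dotted line at the median of all genes. Pdgfrb has the narrowest interval, -5.11 to -3.71, and the intervals of S100a4 and Fap cross 0.

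The start sites of the contractile genes are shown because serum response factor acts through a short element, the CArG box, that lies close to the start of many such genes. RefSeq promoter windows (build GRCm38.p6, 250 bases before the start site to 50 after) were read for 6 of the 10 genes, among them Acta2, Myl9 and Cnn1. A window for Pdgfrb is not reported here. The windows below run 5′ to 3′ along the gene, and capitals mark CArG boxes, exact or with up to 1 G or C in the core, and the MCAT element CATTCC on either strand, which TEAD factors bind.

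Acta2 (chr19:34255324-34255623, minus strand): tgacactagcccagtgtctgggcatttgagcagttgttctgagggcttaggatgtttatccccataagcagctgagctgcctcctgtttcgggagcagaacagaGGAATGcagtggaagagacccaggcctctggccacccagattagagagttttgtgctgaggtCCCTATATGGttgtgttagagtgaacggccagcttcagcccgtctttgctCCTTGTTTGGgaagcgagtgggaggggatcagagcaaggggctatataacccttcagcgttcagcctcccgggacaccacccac

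Myl9 (chr2:156775214-156775513, plus strand): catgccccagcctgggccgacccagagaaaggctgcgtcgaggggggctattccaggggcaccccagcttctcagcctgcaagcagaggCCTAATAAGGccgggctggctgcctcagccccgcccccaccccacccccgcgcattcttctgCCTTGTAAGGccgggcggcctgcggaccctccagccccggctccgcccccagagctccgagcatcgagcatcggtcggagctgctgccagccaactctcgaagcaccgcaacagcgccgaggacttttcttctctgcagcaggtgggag

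Cnn1 (chr9:22099003-22099302, plus strand): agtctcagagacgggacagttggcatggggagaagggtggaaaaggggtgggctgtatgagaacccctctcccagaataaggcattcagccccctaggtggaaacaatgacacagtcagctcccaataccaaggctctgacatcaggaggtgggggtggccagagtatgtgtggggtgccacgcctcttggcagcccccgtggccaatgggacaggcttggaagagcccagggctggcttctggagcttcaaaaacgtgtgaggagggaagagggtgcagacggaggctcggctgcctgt

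Myl9 held 1 exact CArG box, CCTAATAAGG, with its first base at position -161, and 1 with a G in the core, CCTTGTAAGG, at -99. Acta2 held no exact box and 2 with 1 G or C in the core, CCCTATATGG at -84 and CCTTGTTTGG at -34, and 1 MCAT element at -146. None of these was in the windows of Cnn1, Pdgfra, Pdpn or S100a4. Of 32851 windows in the RefSeq table, 1.63% held an exact CArG box, 9.98% one with up to 1 G or C in the core, and 14.7% an MCAT element. These are matches of letters, and no binding was measured.

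The wider contractile apparatus was lower in TNE in part. Of 39 listed genes 29 were measured, including the 4 already described. Of these 29 genes 9 fell, Acta2, Tagln and Myl9 among them, against 10.2% of all genes lower in TNE. None rose (1 at an unadjusted p under 0.05) and 20 did not pass. The median log2 difference was -1.24. The smallest p after Tagln belonged to Tpm2, the beta tropomyosin of smooth and slow muscle, with 7.76, 7.54 and 7.32 in the TNE arrays, against 9.86, 9.80 and 10.00 in the TPIN arrays (log2 difference -2.35, SE 0.26, limma adjusted p = 0.00179). Sorbs3, the adhesion adaptor vinexin, and Lpp, a LIM protein of focal adhesions, had log2 differences of -1.78 and -2.30. The count of 9 was 5 without TPIN replicate 1, and 1 contractile gene was higher without TPIN replicate 3 or TNE replicate 1.

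Tpm4, Actn4 and Myh9, the non-muscle tropomyosin, actinin and myosin heavy chain with the highest means on the list, had log2 differences of -0.79, -0.47 and -0.70 (limma adjusted p = 0.104, 0.344 and 0.223). Tagln2, a broadly expressed paralog of Tagln, had 10.72, 9.18 and 9.68 in the TNE arrays, against 11.36, 11.82 and 10.13 in the TPIN arrays, and did not pass (log2 difference -1.24, limma adjusted p = 0.131). The gap Tagln minus Tagln2 averaged -2.59 ± 1.25 in TNE and 0.09 ± 0.45 in TPIN, a shift of -2.67 (SD, n = 3 each, exact permutation p = 0.1, adjusted over 3 gaps p = 0.3), and no TNE array reached a TPIN array. This gap was chosen after the values were seen.

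Of the calponins, Cnn2, which is found in many non-muscle cells, fell in TNE, with 10.49, 9.46 and 7.81 in the TNE arrays, against 12.54, 12.42 and 12.08 in the TPIN arrays (log2 difference -3.10, limma adjusted p = 0.0134), a call lost without TPIN replicate 1. The gap Cnn1 minus Cnn2, also chosen after the values were seen, shifted by 1.48 (exact permutation p = 0.3, adjusted p = 0.4), so the changes of the paralogs were not shown to differ. Actg2, the enteric smooth muscle actin, had 6.72, 6.56 and 6.95 in the TNE arrays, against 11.10, 7.80 and 6.88 in the TPIN arrays, and did not pass. Acta2 and Actg2 are nearly alike in coding sequence, and cross-hybridisation between their rows was not tested.

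Contractile genes did not all vary alike across the TNE arrays. Acta2 and Tagln were lowest in TNE replicate 1, whereas Myl9 was highest there, 1.31 above its TNE mean. Of the 29 contractile genes 18 (62.1%) had their highest TNE value in replicate 1, against 38.3% of all genes. Tpm1, Cald1 and Vcl, chosen after their values were seen, had 11.47, 11.26 and 11.72 in TNE replicate 1, where their TPIN arrays had 11.83, 11.73 and 12.22 for Tpm1, 11.74, 11.72 and 11.21 for Cald1, and 11.40, 11.48 and 12.28 for Vcl. In TNE replicate 3 the same genes had 8.96, 8.49 and 8.33.

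In TPIN, replicate 3 was at one end of the range for several of the genes. Cnn1, Myl9, Thy1, Tagln and Acta2 had their lowest TPIN value there, while Fap and Pdgfra had their highest. Thy1 and Pdgfra lay further from their TPIN mean in replicate 1 (1.49 and -0.62) than in replicate 3 (-1.29 and 0.45). Of the 29 contractile genes 18 (62.1%) were lowest in TPIN replicate 3 among the TPIN arrays, against 43.3% of all genes. Ankrd1, a target of MRTF and YAP picked with its values known, had 6.56 in TPIN replicate 3 against 10.68 and 11.20 in TPIN replicates 1 and 2. The mean of 5 measured smooth muscle markers, Acta2, Cnn1 and Actg2 among them, was 10.05, 9.71 and 8.63 in TPIN replicates 1, 2 and 3. Every sample title carries a number code of its own, whose meaning the labels do not give. Read as numbers, the code of TPIN replicate 3 falls among those of the TNE samples and the codes of TPIN replicates 1 and 2 above them. Its part in these values was not tested.

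**Figure D3:**
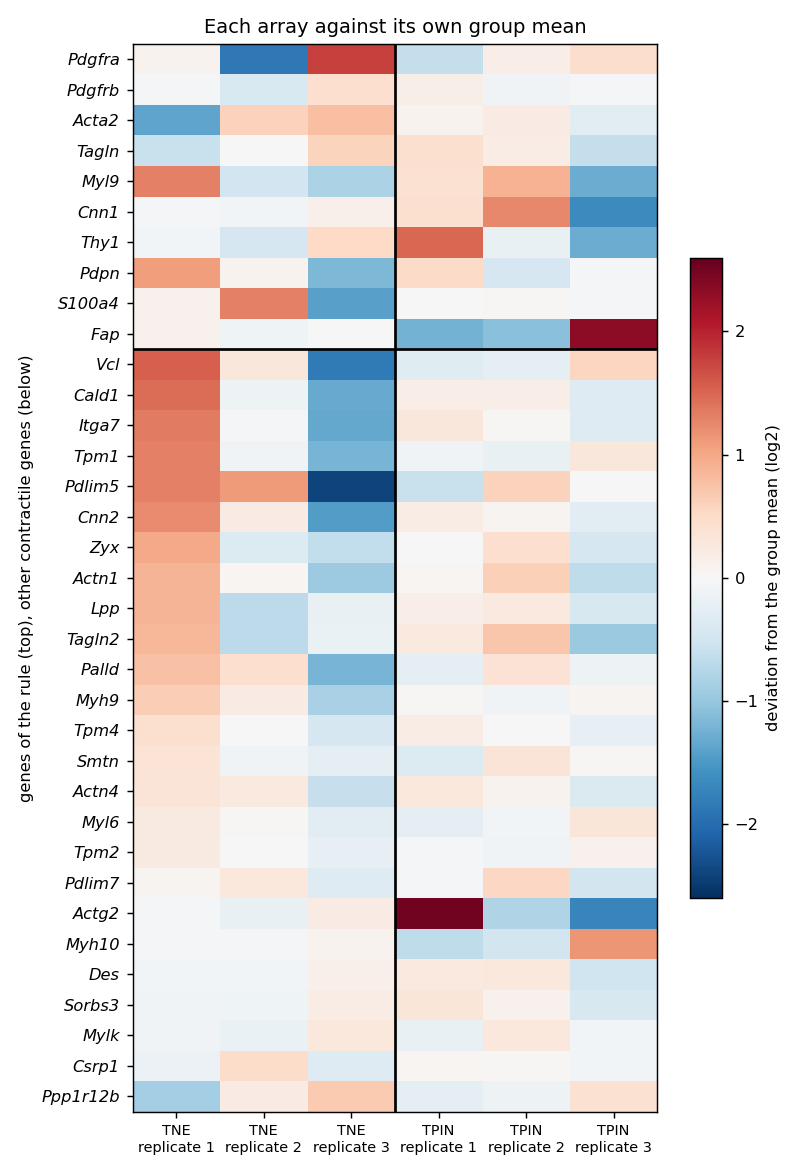
Deviation of each array from the mean of its own group (log2, red above, blue below) for the 10 genes and, under the black line, the other 25 measured contractile genes in the order of TNE replicate 1. In TNE replicate 1 Acta2 lies 1.38 below and Myl9 1.31 above its group mean, and in TPIN replicate 3 Fap lies 2.32 above and Cnn1 1.65 below.

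Thy1, a surface glycoprotein of fibroblasts, neurons and T cells, had 7.44, 7.08 and 8.05 in the TNE arrays, against 12.95, 11.27 and 10.17 in the TPIN arrays. All TNE arrays lay at least 2.12 below all TPIN arrays, although the TPIN arrays spanned 2.78. Thy1 was 15.3-fold lower in TNE (95% interval 5.33 to 44.1, log2 difference -3.94, SE 0.66, limma adjusted p = 0.00725), and the call held without any 1 array.

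Pdpn, podoplanin, a mucin-like protein of lymphatic endothelium and of activated fibroblasts, had 10.60, 9.61 and 8.35 in the TNE arrays, against 12.99, 12.05 and 12.43 in the TPIN arrays. The groups did not overlap, and the TNE arrays spanned 2.25 with replicate 1 highest. Pdpn was 7.83-fold lower in TNE (95% interval 3.19 to 19.2, log2 difference -2.97, SE 0.56, limma adjusted p = 0.0109). It passed without any 1 array, at an adjusted p of up to 0.046.

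S100a4, a calcium-binding protein used as a fibroblast marker and found in leukocytes too, had 9.34, 10.53 and 7.82 in the TNE arrays, against 10.25, 10.27 and 10.21 in the TPIN arrays. TNE replicate 2 lay above all TPIN arrays and TNE replicate 3 far below them, while the TPIN arrays agreed within 0.06. The gene did not pass (log2 difference -1.01, 95% interval -2.43 to 0.41, limma adjusted p = 0.251), and the difference was -0.30 without TNE replicate 3.

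Fap, a membrane serine protease of activated fibroblasts, had 5.47, 5.24 and 5.34 in the TNE arrays, against 5.42, 5.54 and 8.96 in the TPIN arrays. It was high in TPIN replicate 3 alone, and the other 5 arrays lay close together. It did not pass (log2 difference -1.29, 95% interval -3.29 to 0.71, limma adjusted p = 0.296), and without TPIN replicate 3 the difference was -0.13.

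Fibroblast markers outside the 10 genes were lower in TNE on the same arrays. Of 23 listed genes 18 were measured, and 15 fell, against 10.2% of all genes lower in TNE. None rose (0 at an unadjusted p under 0.05) and all differences were negative, with a median of -3.60. The mean of the list was 8.07, 7.62 and 8.48 in the TNE arrays, against 11.51, 11.58 and 11.51 in the TPIN arrays. Loxl1, an enzyme that crosslinks elastin, Prrx1, a mesenchymal transcription factor, and the matrix proteins Dcn, Lum and Dpt had the smallest p, with log2 differences of -4.49, -5.28, -2.82, -6.81 and -5.18. The part of differing cell makeup in the changes of the 10 genes was not tested.

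Pericyte markers differed among themselves. Of 12 measured 5 fell, against 10.2% of all genes lower in TNE, none rose (0 at an unadjusted p under 0.05) and 7 did not pass. The median log2 difference was -1.23, and 3 fell without TPIN replicate 1. Tbx18, a transcription factor of mural cells, had 6.27, 5.92 and 6.10 in the TNE arrays, against 9.43, 9.55 and 9.80 in the TPIN arrays (log2 difference -3.50, limma adjusted p = 0.000449). Steap4 (-3.88), Anpep (-2.58), Rgs4 (-1.34) and Ebf1 (-2.92) also fell. Rgs4 lost its call without TPIN replicate 1 or TNE replicate 2, and Ebf1 without any 1 of 4 arrays. The groups of Ebf1 overlapped, with 8.15 in TNE replicate 2 and 8.12 in TPIN replicate 2.

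Other mural cell markers did not pass. Rgs5, Mcam and Angpt1 had positive differences of 0.68, 0.70 and 0.64, and Cspg4, Notch3 and Des negative ones of -1.29, -0.69 and -0.88, and none of the 6 passed. Of 13 listed markers of differentiated smooth muscle 5 were measured, and Acta2 and Smtn fell, where 10.2% of all genes were lower in TNE. Smtn (-1.14) lost its call without any 1 array other than TNE replicate 1. Myh11 and Myocd, the most specific of that list, were not analysed here.

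The lists of other cell types differed from one another in direction. Of 5 measured endothelial markers 2 fell and 1 rose, where 10.2% of all genes were lower and 10.3% higher in TNE. Eng, a co-receptor that mesenchymal cells carry too, had a log2 difference of -3.57, Flt1 of -1.55 and Cdh5 of 1.62. The call for Flt1 was lost without any 1 of 5 arrays and after quantile normalization again or median centring. None of 4 measured leukocyte markers passed in limma (0 at an unadjusted p under 0.05). Lyz2 of that list had 5.997, 6.001 and 9.39 in the TNE arrays, against 6.99, 6.11 and 5.73 in the TPIN arrays. For this gene TNE replicate 3 stood apart. Of the 4 markers 3 had their highest TNE value in replicate 3, against 29.1% of all genes, and 1, Cd14, in replicate 1. This was not particular to leukocyte markers. Replicate 3 was also highest of the TNE arrays for 12 of 18 fibroblast markers, and for 9 of 29 contractile genes. A link between the leukocyte markers and the high Pdgfra value of TNE replicate 3 was not tested. Of 8 measured neuroendocrine markers 5 rose, against 10.3% of all genes higher in TNE, and none fell (1 at an unadjusted p under 0.05). The smallest p belonged to Uchl1 (2.67) and Cadps2 (4.17). Stmn2 (0.91), Ncam1 (0.04) and Eno2 (-0.79) did not pass, and for Eno2 every TNE array lay below every TPIN array. The count that rose was 3, 2 and 3 without TPIN replicate 1, 2 or 3.

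**Figure D4:**
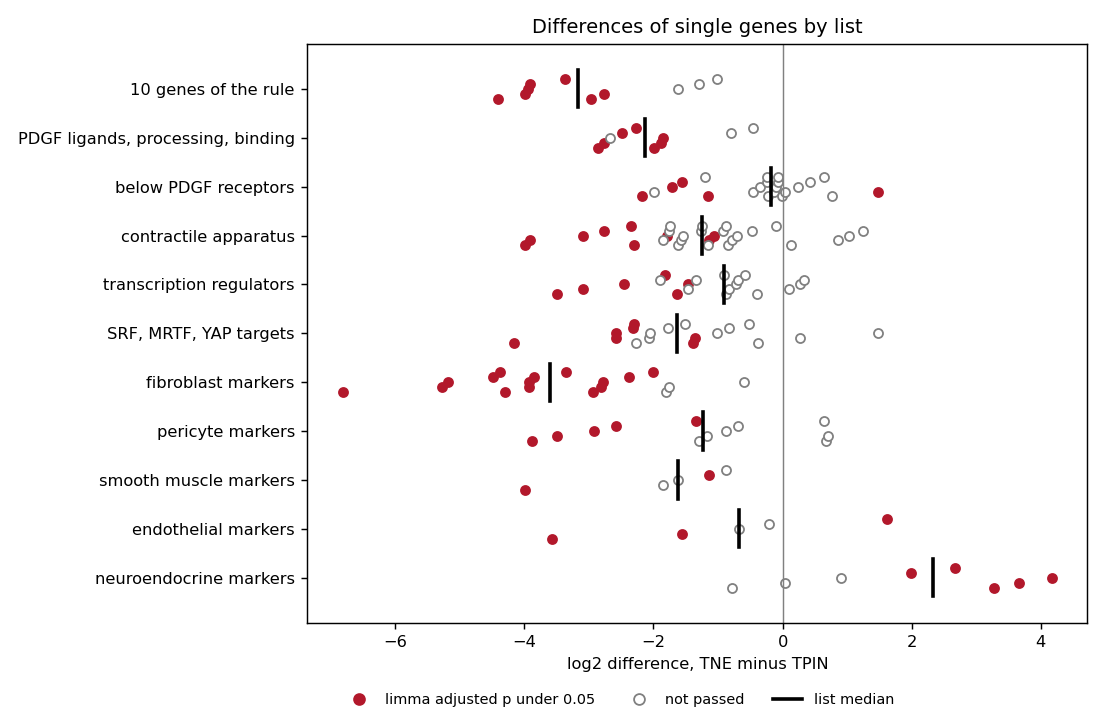
Log2 differences, TNE minus TPIN, of single genes in 11 lists, with red circles for genes past the limma threshold, open circles for the others and a bar at each list's median. The medians run from -3.60 for fibroblast markers to 2.33 for neuroendocrine markers, and lie at -3.17 for the 10 genes and -0.18 for the proteins below the PDGF receptors.

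The regulators of contractile genes were lower in TNE in some members. Of 25 listed genes 19 were measured, and 6 fell, against 10.2% of all genes lower in TNE. None rose (0 at an unadjusted p under 0.05) and 13 did not pass, with a median of -0.90. Gata6, a transcription factor of smooth muscle and other mesoderm, had 7.11, 7.36 and 7.62 in the TNE arrays, against 10.94, 10.63 and 9.80 in the TPIN arrays (log2 difference -3.09, limma adjusted p = 0.00212). Twist2, a mesenchymal factor, and Fhl2, a LIM protein that binds serum response factor, had log2 differences of -3.49 and -2.46. Tead3, which binds MCAT elements, was at -1.63 and its coactivator Wwtr1 at -1.83, the last losing its call without any 1 array other than TNE replicate 1. Zeb1 was at -1.47 and lost its call without TNE replicate 2.

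Srf itself, picked with its values known, had 9.32, 9.11 and 8.69 in the TNE arrays, against 9.78, 10.09 and 9.30 in the TPIN arrays. Its groups overlapped at TNE replicate 1 and TPIN replicate 3, and it did not pass (log2 difference -0.68, limma adjusted p = 0.154). The MRTF genes Mkl1 and Mkl2 were not analysed here.

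Immediate early and other targets of serum response factor, MRTF or YAP were lower for 7 of 18 measured genes, against 10.2% of all genes. None rose (0 at an unadjusted p under 0.05), and the median was -1.64. Egr2, a zinc finger factor induced by growth factors, had 7.37, 6.91 and 6.83 in the TNE arrays, against 11.75, 10.87 and 10.95 in the TPIN arrays (log2 difference -4.15, limma adjusted p = 0.000615). Fos was at -2.58, Egr1 at -2.58, Junb at -1.39 and Tgfb1i1, an adhesion LIM protein, at -2.32. Of the 7 calls 2, those of Egr2 and Fos, held without any 1 array, and the count was 2 without TPIN replicate 1 or TNE replicate 2. Axl, a receptor kinase of highest mean on the list, did not pass (log2 difference -2.07).

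The genes whose centred values lay closest to a member over the 6 arrays were found by the root mean square (RMS) difference, with Pearson's r as a second description. For genes with a wide gap between the groups, both measures are dominated by that gap. Closest to Pdgfrb were Egfr (RMS difference 0.17, r = 0.997), the secreted factor Serpinf1 (0.22, r = 0.995) and the growth factor Vegfd (0.23, r = 0.997). Tagln lay closest to the adhesion protein Clmp (0.21), Eng (0.28) and Slit3 (0.30), and Acta2 lay closest to Tagln (0.45, r = 0.977), Mmp2 (0.50) and the collagen chaperone Serpinh1 (0.52).

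Pdgfra, with its wide TNE spread, had no neighbour nearer than Ccdc80 (RMS difference 0.55, r = 0.963), followed by Cyp7b1 (0.59) and Crabp1 (0.65). Thy1 was nearest to Fgf10 (0.37), Aldh1a2 (0.46) and Slit3 (0.47), and Pdpn to Cyb5a (0.24), Lpar1 (0.27) and Mr1 (0.28). Myl9 was nearest to Lgals9 (0.28), S100a11 (0.33) and Antxr1 (0.33).

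The genes that did not pass had close neighbours with the same odd array. Cnn1 was nearest to Gdf6 (RMS difference 0.10, r = 0.998), Spry3 (0.23) and Rpl23a (0.23). Fap was nearest to Tnmd (0.19, r = 0.997), Rspo2 (0.23) and Inmt (0.23), which shared the high value in TPIN replicate 3. S100a4 was nearest to Arntl (0.21), Dnajb4 (0.29) and Ank2 (0.29).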

How the data were processed

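The authors deposited log2 values, and the submitters' processing notes name RMA. No version, software or genome build is stated in the sources used here. The deposited table holds 10361 rows of the array, with values from 2.86 to 14.1, and how they were selected is not stated. RMA narrows differences near background. Of these, 9496 had 1 symbol in the annotation, 374 had several and 491 had none. The row of highest mean was kept for 6 genes with several rows, which left 9490 genes. All 10 genes matched a RefSeq identifier. TNE and TPIN, 3 arrays each, were set against each other across all genes in limma 3.58.1 (R 4.3.3), two-sided, with Benjamini-Hochberg adjustment and a threshold of 0.05. Replicate numbers follow accession order and pair no samples. At most 0.106% of rows were identical in any pair of arrays. Precision is limited by the number of arrays. The fit was tested on simulated data with genes drawn independently. That test does not bear on whether the samples are separate mice or cultures.

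The genes and lists were chosen with earlier results of these data known. Named were the 10 genes, any gene of lists with up to 12 measured genes, and in longer lists the 5 of smallest p, the 3 of highest mean and paralogs of the 10, plus 3 nearest genes by RMS difference, leaving out predicted gene models. Alternatives were each array left out, quantile normalization again, median centring, leaving out the 25% dimmest genes, trended robust moderation, array weights and all rows. Another list of genes is not reported here.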

Additional observations from a re-analysis of the deposited data

How the results depend on the processing

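Leaving out each array in turn moved the log2 difference of Pdgfra between -4.25 and -2.44, of Myl9 between -3.43 and -2.32 and of Cnn1 between -2.44 and -0.99. Those of Pdgfrb, Acta2, Tagln, Thy1 and Pdpn kept direction and call in each of these fits, and S100a4 and Fap never passed. The number of the 10 genes that fell was 5 to 7, and of the contractile genes 5 to 12. With array weights, which limma estimates from the same 6 arrays, Cnn1 passed (log2 difference -2.31, limma adjusted p = 0.00695), 18 contractile genes were lower and 2 higher, 12 regulators were lower, and 4267 of all genes passed instead of 1941. Over all genes 936 passed without TPIN replicate 1, 1115 when TPIN replicate 2 was dropped and 832 when TNE replicate 2 was, against 2596 without TPIN replicate 3. The cause was not tested in any of these. Requantiling, median centring, trended moderation, all rows and the filter on dim genes changed no call among the 10 genes, except that Cnn1 and Fap fell below the filter and have no value there. No log2 difference of the 10 genes changed sign under any alternative. No paired analysis was possible because the labels give no shared replicate numbers. Signal over background is unknown, so for rows near the low end, such as Fap, a difference may be understated.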

Other observations

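Of 3 measured related receptor kinases 1 rose, 1 fell (Flt1, described above) and 1 did not pass. Of all genes 10.3% were higher and 10.2% lower in TNE. Both calls were lost in some fits with 1 array left out. Kit, the stem cell factor receptor, rose in TNE, with 7.96, 9.37 and 10.53 in the TNE arrays, against 6.79, 6.36 and 6.94 in the TPIN arrays (log2 difference 2.59, limma adjusted p = 0.0223), a call lost when TPIN replicate 1 or 2, or TNE replicate 2, was left out. Flt4 had 6.84, 6.45 and 7.07 in the TNE arrays, against 6.86, 7.14 and 6.46 in the TPIN arrays (log2 difference -0.03).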
